A study of Homo sapiens with 14 samples.

Results

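A549 cells kept on indisulam alone were compared with untreated A549 cells across all genes, using the 4 of 14 libraries that the labels give to these groups. The indisulam group held 2 libraries from cells given 0.5 µM indisulam for 10 days, and the untreated group held 2 libraries from cells given no drug, for which the labels state no collection time. A549 is a human lung adenocarcinoma cell line that lacks the CDKN2A locus and carries an inactive KEAP1, so that the antioxidant factor NRF2 is on without a stimulus. The series holds further A549 libraries treated with palbociclib (2 µM, 10 days), with both drugs or with PF-06873600, and libraries of the breast line SUM159. Of these, the 2 palbociclib libraries are used below for comparison. The series' design text calls the libraries of a group technical duplicates. The p-values and standard errors therefore measure only the spread between duplicates, pooled over all 10 A549 libraries. Poly(A) RNA was sequenced, and levels are given as CPM, the reads on a gene scaled to a fixed total of reads on all genes of that library. The untreated duplicates held 14712412 and 15000694 reads on genes, and the indisulam duplicates 14469520 and 15133090. Of 60683 gene rows, 15780 passed the filter on low counts and were tested, and 32848 had no count in any of the 4 libraries.

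Indisulam is an aryl sulfonamide that acts as a molecular glue. It binds DCAF15, a substrate receptor of the CUL4-DDB1 ubiquitin ligase, and brings the splicing factor RBM39 to this ligase, after which RBM39 protein is degraded. RBM39 works with the spliceosome on many pre-mRNAs, so its loss is known to change the exons that are kept in transcripts, and palbociclib, used here as a comparison drug, instead blocks the cell cycle kinases CDK4 and CDK6. Gene-level counts report neither protein nor exon use.

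The libraries carried the marks of the line. CDKN2A and its neighbour CDKN2B, both inhibitors of CDK4 and CDK6, had no count in any of the 4 libraries, and MTAP, the next gene of that deleted region, had 5 and 0 counts without drug and 3 and 1 with indisulam. The 6 simple epithelial markers summed to 6492 and 5573 CPM in the untreated duplicates and to 10080 and 10090 CPM with indisulam. Of the 9 markers of alveolar type II cells, the lung cells this line is often used to stand for, 7 had a count and 4 were tested. ABCA3 fell from 114.5 and 98.6 to 83.62 and 80.02 CPM, and NAPSA rose from 0.884 and 0.533 to 2.56 and 1.26 CPM. The surfactant genes SFTPA1 and SFTPB had no count. Leukocyte markers summed to 7.48 and 6.93 CPM without drug and to 13.5 and 15.8 CPM with indisulam, mostly from CD14, and the defining T cell marker CD3E had no count.

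The level of 7177 of the 15780 tested genes differed with indisulam, and the large changes were mostly increases. Of all tested genes, 4420 (28%) were higher and 2757 (17.5%) were lower than in untreated cells at an adjusted p under 0.05. By the stricter rule of at least 2-fold, 1523 (9.65%) were higher and 497 (3.15%) were lower. Increases of more than 8-fold were seen in 256 genes and decreases of that size in 11. Increases made up 61.6% of the calls when libraries were scaled to their total counts, and 50.4% with TMM scaling, which centres the bulk of the genes; among the 2-fold changes these shares were 75.4% and 69.7%. In bulk libraries, a higher level in each cell and more cells with the transcript cannot be told apart. The median log2 fold change over all tested genes was 0.08 with total counts and 0.00 with TMM. Genes that changed 2-fold in either direction had low levels in untreated cells. The median there was 0.947 CPM for those that rose and 4.87 CPM for those that fell, against 17.5 CPM over all tested genes. Together the genes that rose 2-fold took 12020 and 11710 CPM without drug and 33660 and 33200 CPM with indisulam. The genes that fell 2-fold went from 29970 and 27920 CPM to 10550 and 10820 CPM.

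**Figure D1:**
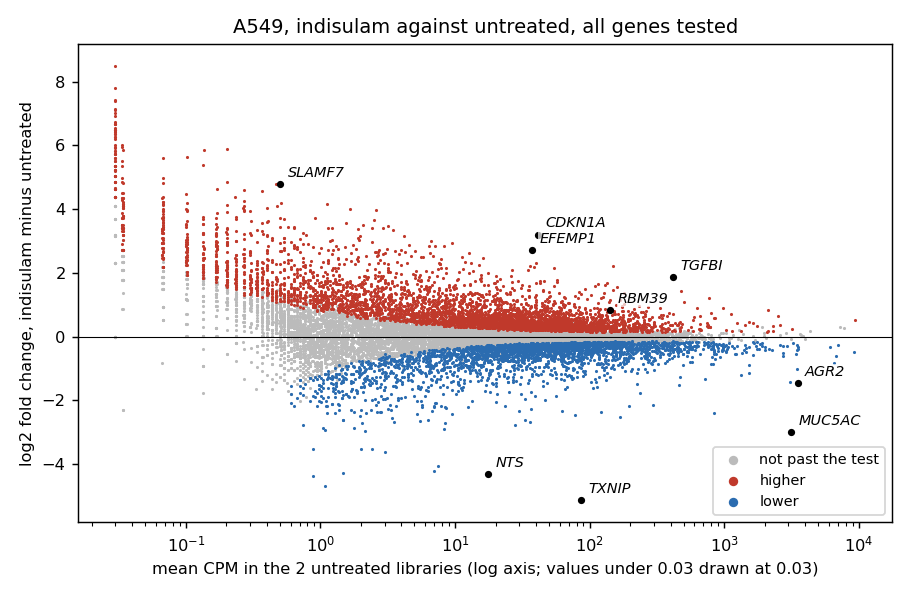
Change of each of the 15780 tested genes with indisulam: the horizontal axis is the mean CPM in the 2 untreated libraries (log scale), the vertical axis is the log2 fold change of indisulam over untreated, and each point is a gene. The large increases lie mostly among genes of low untreated level, while RBM39 and CDKN1A rise and TXNIP and MUC5AC fall at intermediate or high levels.

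The untreated duplicates differed more from each other than the indisulam duplicates did. Over genes with 20 or more counts, their chi-square per degree of freedom was 10.5, against 3.31 between the indisulam duplicates and 5.48 between the palbociclib duplicates. The difference ran along base composition, with a median log2 ratio of the first to the second untreated library of -0.14 in the quintile of coding genes with the lowest GC content and 0.25 in the quintile with the highest. The same ratio between the indisulam duplicates went from -0.05 to 0.05. The test pooled the spread of all A549 groups, including both drugs together (chi-square per degree of freedom 2.35) and PF-06873600 (1.66). With only the compared groups in the fit, 3305 of 14811 tested genes were higher and 2020 lower. The share of gene reads from mitochondrial genes was 5.22% and 4.18% without drug and 6.05% and 5.36% with indisulam. Leaving out 1 of the 4 libraries in turn gave between 3404 and 4525 genes higher and between 2092 and 2939 lower.

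The transcript of the degraded target itself rose. RBM39 (chr20:35701347-35742312 in GRCh38, minus strand) had 149.5 and 134.9 CPM in untreated cells and 243.9 and 263.4 CPM with indisulam. Both indisulam values lay above both untreated values, and the log2 fold change was 0.83 ± 0.08 (SE, n = 2 and 2; adjusted p = 7.46e-07, edgeR's quasi-likelihood test with Benjamini-Hochberg adjustment). Palbociclib-treated cells had 120.1 and 141.6 CPM of RBM39. RBM23, a close paralog of RBM39 that the same ligase can bind, did not pass the test, with a log2 fold change of -0.02. Of the 8 genes in the list of the target and the ligase, 3 (37.5%, against 28% of all genes) rose and none fell. The other 2 that rose were CUL4B, a scaffold of the ligase, from 85.03 and 93.73 to 131 and 130.3 CPM, and DDB1, its adaptor, from 345.2 and 333.5 to 435.4 and 406.5 CPM. DCAF15 had 10.4 and 9.4 CPM without drug and 12.44 and 11.1 CPM with it, and did not pass the test (log2 fold change 0.25). The scaffold CUL4A (-0.10) and the RING subunit RBX1 (-0.23) did not pass with total counts but were lower with TMM scaling, at adjusted p of 0.0245 and 0.015 by edgeR's quasi-likelihood test with Benjamini-Hochberg adjustment. RBX1 also passed without the first untreated library (-0.34).

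CCNH, the cyclin of the CDK-activating kinase, which phosphorylates CDK2 and other CDKs, fell. It had 22.09 and 24.13 CPM without drug and 9.33 and 10.37 CPM with indisulam, against 19.52 and 19.04 CPM with palbociclib. The groups were well apart, with a log2 fold change of -1.23 ± 0.11 (SE; adjusted p = 3.71e-07, edgeR's quasi-likelihood test with Benjamini-Hochberg adjustment). CCNH (chr5:87318416-87412930, minus strand) overlaps RASA1 on the other strand, and the strand setting of the counting is not given in the sources used here. Its partners CDK7 (log2 fold change 0.20) and MNAT1 (-0.05) did not pass the test, although CDK7 did so without the second untreated library (0.31). CDK2 itself (0.08) and its S-phase cyclin CCNA2 (-0.11) did not pass it either, while CCNE1, the G1 partner of CDK2, rose from 10.33 and 11.27 to 17.49 and 16.92 CPM. With palbociclib CCNE1 had 19.52 and 20.81 CPM, and it did not pass the direct test between the drugs.

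Of 6 tested inhibitors of CDKs 1 rose strongly and 2 fell (16.7% and 33.3%, against 28% and 17.5% of all genes). CDKN1A, which encodes the p53-induced inhibitor p21 (chr6:36676460-36687337, plus strand), had 39.15 and 43.66 CPM in untreated cells and 377.1 and 383.1 CPM with indisulam. This was a 9.18-fold rise (log2 fold change 3.20 ± 0.07 SE; adjusted p = 6.14e-13, edgeR's quasi-likelihood test with Benjamini-Hochberg adjustment). Palbociclib-treated cells had 56.03 and 54.31 CPM, also above untreated cells but by a log2 fold change of 0.41 (adjusted p = 0.000859, edgeR's quasi-likelihood test with Benjamini-Hochberg adjustment). CDKN2C, an inhibitor of CDK4 and CDK6, fell from 61.51 and 70.26 to 27.3 and 31.32 CPM, and CDKN1B, which encodes p27, fell from 63.35 and 59.2 to 44.71 and 47.05 CPM. With palbociclib CDKN2C had 43.78 and 40.82 CPM, and CDKN1B had 50.31 and 44.67 CPM. In the direct test between the drugs CDKN2C passed as lower with indisulam, and CDKN1B did not pass. CDKN1C (log2 fold change 1.25), CDKN2D (-0.135) and CDKN3 (-0.24) did not pass the test, although CDKN1C did so with no filter on low counts. The change of CDKN3 was -0.38 without the first untreated library and -0.43 without the second indisulam library. That of CDKN1C was 3.79 without the second untreated library and 1.9 without the second indisulam library. CDKN1C had 1 and 12 counts without drug and 24 and 7 with indisulam. The D-type cyclins CCND1 (429.2 and 406.1 to 675.1 and 693.2 CPM) and CCND3 (155.4 and 145.3 to 262.8 and 266.2 CPM) rose, and the pocket protein RBL1 fell (log2 fold change -0.83). With palbociclib CCND1 had 645.5 and 638.3 CPM and CCND3 277.1 and 272.5 CPM, and neither passed the direct test between the drugs. RBL1 passed that test, with 15.51 and 15.38 CPM after palbociclib. Of 18 genes of the CDK4/6, RB and E2F list, 4 rose and 4 fell (22.2% each, against 28% and 17.5% of all genes), with a median log2 fold change of -0.01, and 2 rose without the first untreated or either indisulam library.

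**Figure D2:**
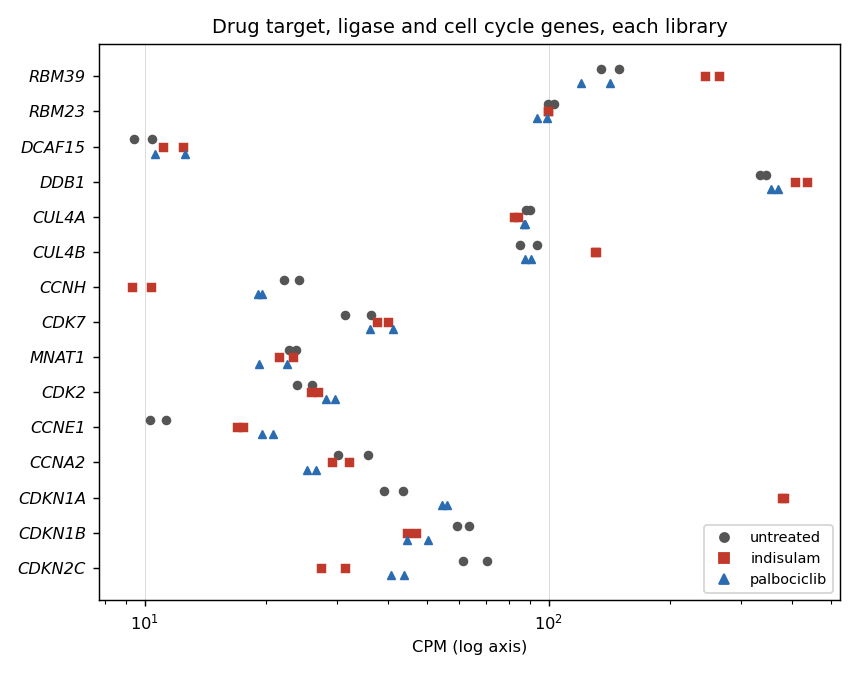
CPM of the indisulam target, its ligase and CDK regulators in each library (horizontal log axis), with untreated libraries as grey circles, indisulam as red squares and palbociclib as blue triangles. RBM39 and CDKN1A lie highest in the 2 indisulam libraries (377.1 and 383.1 CPM for CDKN1A), and CCNH and CDKN2C lie lowest there.

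The p53 targets rose almost as a whole. All 31 listed genes were tested, and 30 were higher and none lower, with a median log2 fold change of 1.27; among all genes 28% were higher and the median was 0.08. Their summed level went from 1338 and 1367 CPM to 3342 and 3279 CPM. MDM2, the ligase that holds p53 in check, rose from 118.9 and 134.8 to 327.5 and 329.6 CPM, and BAX, which opens the mitochondrial outer membrane, from 84.83 and 71 to 190.1 and 186.8 CPM. FAS, a death receptor, had 6.93 and 8.4 CPM without drug and 37.2 and 39.6 CPM with indisulam (log2 fold change 2.32), and it overlaps ACTA2, which also rose, on the other strand. SPATA18, which takes part in mitochondrial quality control, went from 4.28 and 4.27 to 28.7 and 25.1 CPM (2.65), and the secreted stress factor GDF15 from 44.5 and 34.8 to 122.9 and 129.4 CPM (1.67). In all of these the duplicates of the 2 groups were far apart. TP53INP1 (2.13), the kinase PLK2 (2.08), the receptor EDA2R (1.84), PHLDA3 (1.81) and the stress sensor SESN1 (1.73) rose as well. SESN2, at 33.58 and 29.93 CPM without drug and 36.56 and 33.77 CPM with it, was the member that did not pass the test. Without any 1 library, 30 or 31 of the 31 were higher. MIR34AHG, the host transcript of a microRNA that p53 induces, rose from 4.08 and 1.73 to 13.5 and 8.06 CPM. In the direct test against palbociclib-treated cells, 30 of the 31 were higher with indisulam and none lower, where 24.8% of all genes were higher and 13.6% lower.

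**Figure D3:**
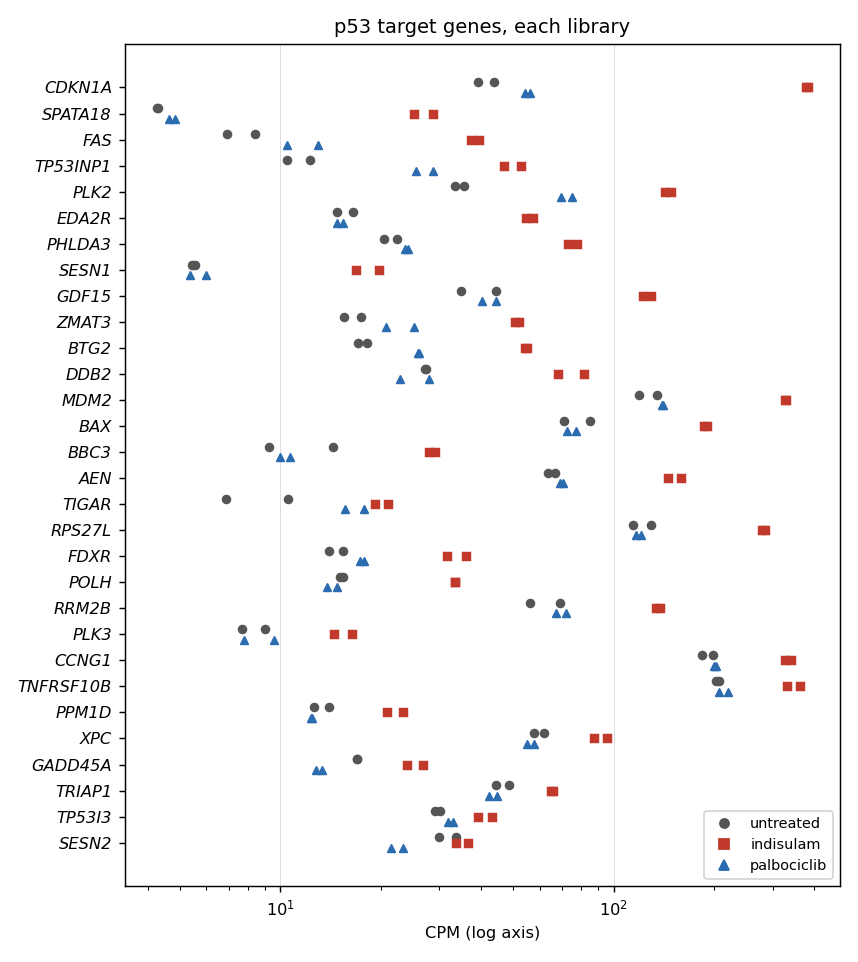
CPM of 30 of the 31 listed p53 targets in each untreated, indisulam and palbociclib library (log axis). By the test the indisulam libraries lie above the untreated ones for each gene drawn other than SESN2.

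Some genes of proliferation rose and others fell. In the DNA replication list 11 of 41 genes (26.8%) rose and 9 (22.0%) fell, with a median log2 fold change of 0.03, and in the mitosis list 9 of 46 tested genes (19.6%) rose and 10 (21.7%) fell (0.03). Of all genes 28% rose and 17.5% fell. Both medians turn negative with TMM scaling (-0.05 each), with 7 higher and 11 lower for replication and 7 higher and 13 lower for mitosis. Without the first indisulam library 7 replication genes were higher, and without the second untreated library 6 were lower. Without the second indisulam library 5 mitosis genes were higher. PCNA, the sliding clamp of DNA polymerases and also a p53 target, rose from 116.5 and 118.9 to 183.8 and 188.2 CPM. POLA1, the catalytic subunit of the polymerase alpha-primase complex, fell from 25.08 and 28.27 to 14.51 and 13.81 CPM, and TOP2A, a topoisomerase of dividing cells, from 202.4 and 216.3 to 129.9 and 131.6 CPM. The proliferation marker MKI67 fell less, from 171.8 and 181.5 to 138.2 and 147.1 CPM. CCNB1 and CDK1, which drive entry into mitosis, gave log2 fold changes of 0.04 and 0.02 and did not pass the test. CENPI, a kinetochore protein, fell by 1.22 on the log2 scale, and the motor protein KIF18A rose by 0.83. Homologous recombination and Fanconi repair genes gave 6 higher and 6 lower of 35 (17.1% each), with TMM 3 and 8, by DESeq2 0 and 5, and 3 lower without the first untreated or the second indisulam library. In the direct test against palbociclib-treated cells, 20 of the 46 mitosis genes were higher with indisulam and 6 lower. There 5 of the 41 replication genes were higher and 21 lower, and 2 of the 35 repair genes were higher and 12 lower. Of all genes 24.8% were higher and 13.6% lower in that test. These counts used total counts only, and with TMM 2952 of all genes were higher and 3001 lower there.

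With total counts, core spliceosome genes were called higher than untreated about as often as all genes. In the core spliceosome list 18 of 58 tested genes (31.0%, against 28% of all) rose and 8 (13.8%, against 17.5%) fell, with a median log2 fold change of 0.04 that becomes -0.04 with TMM, where 17 rose and 15 fell. PRPF8, a central protein of the spliceosome, rose from 346.4 and 320.7 to 641.6 and 604 CPM. PRPF3, a protein of the U4/U6 particle, went from 35.96 and 30 to 76.71 and 70.97 CPM, and the helicase DHX15 from 111.5 and 116.9 to 222.3 and 202.9 CPM. MAGOH, of the exon junction complex, fell from 20.93 and 23.93 to 16.03 and 15.53 CPM. The share of lower genes was the less stable one, at 12 without the first untreated library, 5 without the second and 3 without the first indisulam library. SR proteins, their kinases and hnRNPs gave 10 higher (23.8%) and 5 lower of 42 (median 0.05), but 4 higher and 7 lower with TMM (-0.03), and 5 higher and 2 lower without the first indisulam library. In that list SRRM1 rose by 0.51, PTBP1 rose by 0.40 and SRSF6 fell by 0.35 on the log2 scale. With TMM, 3613 of all 15780 tested genes were higher and 3558 lower. In the direct test against palbociclib-treated cells, 26 of the 58 core spliceosome genes were higher with indisulam and 0 lower. Of the 42 SR protein, kinase and hnRNP genes 18 were higher and 3 lower there, where 24.8% of all genes were higher and 13.6% lower. These list counts against palbociclib were made with total counts only. With TMM, 2952 of all genes were higher than with palbociclib and 3001 lower.

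The share of coding genes called higher varied with gene structure. Of all tested coding genes 30.3% were called higher and 18.1% lower, and 9.38% were higher by the 2-fold rule. The share called higher was 40.4% for genes with at least 20 exons, 31.2% for 10 to 19, 25.7% for 5 to 9, 27.1% for 2 to 4 and 28.3% for 1 exon. By the 2-fold rule the shares were 10.6%, 8.26%, 8.66%, 11.9% and 13.7% in the same order. The shares called lower were 13.21%, 17.37%, 21.49%, 18.11% and 14.15% in that order. The median untreated level differed too, at 35.85, 29.67, 22.78, 12.95 and 9.324 CPM, and its part in these shares was not tested. In the quintile of genes with the longest gene body 37.1% were called higher, and in the shortest quintile 24.5%; by the 2-fold rule these were 11.6% and 10.1%. In the quintile with the highest GC content 37.4% were called higher and 11.5% lower, and in the lowest 28.3% and 15.7%; by the 2-fold rule 14.3% were higher in the highest and 4.56% in the lowest. The highest is also where the untreated duplicates differed most from each other. The part of this difference in these shares was not tested.

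**Figure D4:**
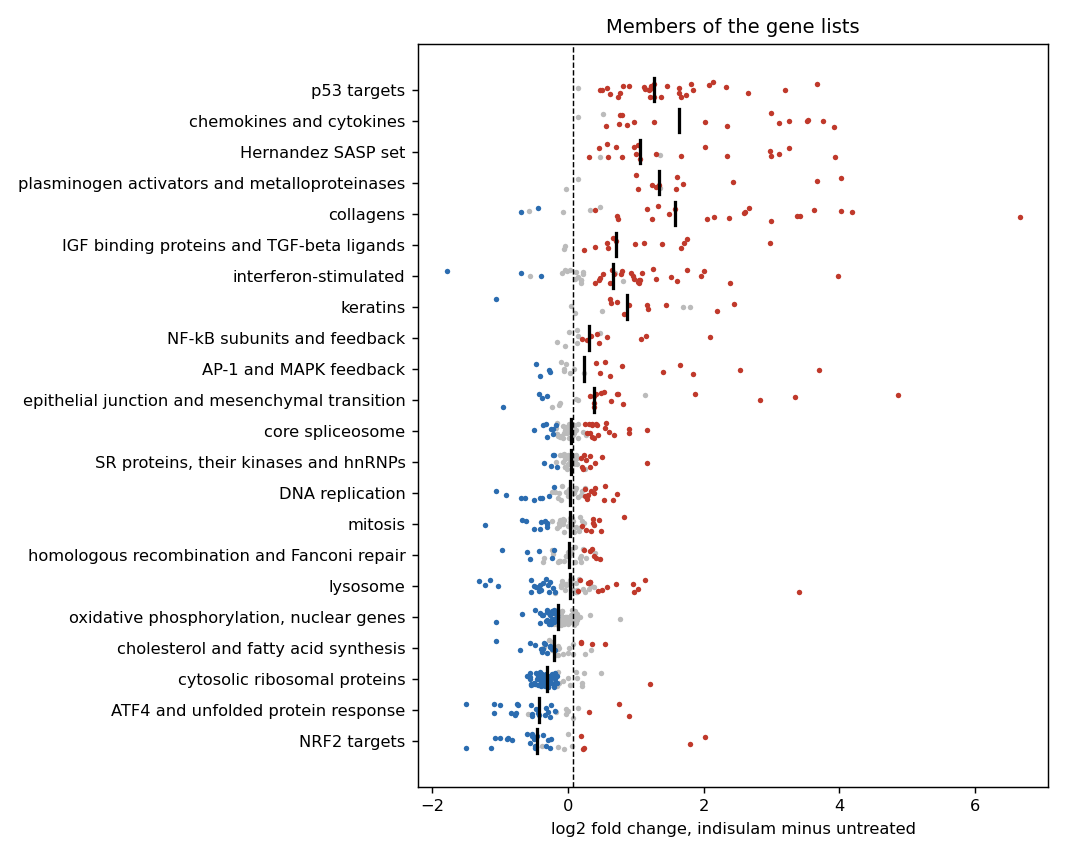
Log2 fold change of indisulam over untreated for the members of 22 gene lists, 1 point a gene, with the median of each list as a black bar and the median of all tested genes as a dashed line. The medians of collagens, chemokines and p53 targets lie to the right of the line. Those of NRF2 targets, genes of the unfolded protein response and cytosolic ribosomal proteins lie to the left. Some members lie on the other side of the line from their median.

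Most tested genes of secreted inflammatory factors rose. Of 30 listed chemokines and cytokines 18 were tested, and 16 (88.9%, against 28% of all genes) were higher and none lower (median log2 fold change 1.64). With a filter of at least 50 counts on average 10 were tested, 9 of these were higher and the median was 0.83. With no filter on low counts 27 were tested, 16 were higher and the median was 0.97. CXCL8, which attracts neutrophils (chr4:73740519-73743716, plus strand), had 6.32 and 7 CPM without drug and 52 and 54.3 CPM with indisulam. This was a 7.97-fold rise (adjusted p = 1.87e-11, edgeR's quasi-likelihood test with Benjamini-Hochberg adjustment), and palbociclib-treated cells lay between, at 24.9 and 25.8 CPM. CXCL5, a related chemokine, rose from 214.6 and 251.3 to 450.9 and 461.6 CPM. CCL2, a chemokine for monocytes, went from 0.612 and 0.867 to 7.74 and 6.54 CPM, IL1B from 0.544 and 0.533 to 5.25 and 4.16 CPM, and IL6 from 0.544 and 0.533 to 3.18 and 2.38 CPM. All 3 are low in absolute terms, since 3 counts are 0.204 and 0.2 CPM in the untreated libraries. Of 16 NF-kB subunits and feedback genes 9 (56.2%) rose and none fell, by DESeq2 5, with TNFAIP3, an inhibitor of that pathway, from 2.17 and 2.27 to 10 and 9.05 CPM.

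Interferon-stimulated genes included both increases and decreases. Of 44 tested, 26 (59.1%, against 28% of all genes) rose and 3 (6.8%, against 17.5%) fell, with a median log2 fold change of 0.67. TRIM22, an antiviral E3 ligase that p53 also induces, went from 2.04 and 3.13 to 44.3 and 37.9 CPM (3.98), and it overlaps TRIM5 on the other strand. GBP1, an interferon-induced GTPase, went from 1.77 and 1.6 to 9.19 and 8.46 CPM, and SAMD9L from 3.6 and 3.73 to 14.9 and 14.5 CPM. ISG20, an interferon-induced exonuclease, fell from 32.63 and 29.53 to 10.09 and 7.93 CPM, and OAS1, which senses double-stranded RNA, from 111.1 and 112.4 to 88.95 and 80.95 CPM.

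The list of AP-1 factors, which join signals from growth factor and stress kinases to transcription, and of MAPK feedback genes gave 10 higher (47.6%, against 28% of all genes) and 4 lower (19%, against 17.5%) of 21 tested genes (median log2 fold change 0.23). The median was 0.16 with TMM. With a filter of at least 50 counts on average it was 0.09, with 8 higher and 4 lower of 19. With no filter on low counts it was 0.41, with 10 higher and 4 lower of 23. JUN rose from 7.14 and 6.53 to 38.6 and 40.4 CPM (2.53) and FOSL1 from 7.61 and 8.73 to 27.7 and 31.1 CPM (1.85). The 7-letter AP-1 motif TGANTCA, searched on both strands of RefSeq promoters of GRCh38.p14 (250 bases before to 50 after the start), was present in 9.4% of the 1000 genes that rose 2-fold and had a promoter, in 6.7% of the 298 that fell 2-fold, and in 4.9% of all 11517. A promoter was on hand for 65.7% of the genes that rose 2-fold. The other 5 motifs searched were CACGTG (7.0% of genes that rose, 7.7% of genes that fell, 9.8% of all), CCAAT (32.4%, 35.2% and 36.3%), TTTGAA (12.1%, 13.8% and 10.0%), TGATGNAA (2.3%, 4.7% and 1.8%) and TGACNNNGC (13.2%, 16.4% and 15.1%). A match is a description of the sequence and not of binding. The 250 bases before the start are printed for 4 risen genes that carry the motif in that window, with the match in capitals, as examples chosen after their values were seen: CXCL8, the protease MMP7, the cytokine IL11 and the metal-binding protein MT2A.
CXCL8 (chr4:73740319-73740568, plus strand): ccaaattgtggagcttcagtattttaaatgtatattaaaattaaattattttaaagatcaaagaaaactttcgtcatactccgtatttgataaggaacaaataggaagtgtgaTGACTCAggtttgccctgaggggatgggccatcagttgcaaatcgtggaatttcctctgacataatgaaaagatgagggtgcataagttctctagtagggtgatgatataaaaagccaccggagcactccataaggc
MMP7 (chr11:102530748-102530997, minus strand): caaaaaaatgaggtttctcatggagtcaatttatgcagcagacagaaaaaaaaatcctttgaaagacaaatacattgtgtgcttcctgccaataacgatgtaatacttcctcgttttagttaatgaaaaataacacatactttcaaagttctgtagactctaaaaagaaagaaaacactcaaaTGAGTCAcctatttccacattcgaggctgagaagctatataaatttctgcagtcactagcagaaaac
IL11 (chr19:55370464-55370713, minus strand): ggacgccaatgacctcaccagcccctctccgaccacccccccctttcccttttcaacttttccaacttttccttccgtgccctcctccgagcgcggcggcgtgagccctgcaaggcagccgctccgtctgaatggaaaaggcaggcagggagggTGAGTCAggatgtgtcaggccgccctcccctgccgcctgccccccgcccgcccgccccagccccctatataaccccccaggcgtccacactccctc
MT2A (chr16:56608334-56608583, plus strand): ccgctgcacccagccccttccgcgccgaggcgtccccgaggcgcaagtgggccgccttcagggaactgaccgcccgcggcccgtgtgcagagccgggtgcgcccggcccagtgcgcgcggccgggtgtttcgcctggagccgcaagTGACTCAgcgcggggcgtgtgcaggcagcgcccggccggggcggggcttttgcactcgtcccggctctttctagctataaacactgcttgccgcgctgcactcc
In these 4 promoters the match began 137 (CXCL8), 67 (MMP7), 96 (IL11) and 104 (MT2A) bases before the start. IL11 had 0.408 and 0.467 CPM without drug and 1.93 and 1.65 CPM with indisulam, and MT2A had 1.97 and 1.33 CPM and then 4.77 and 4.89 CPM.

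Of 14 tested plasminogen activators and metalloproteinases, with their inhibitors, 11 (78.6%, against 28% of all genes) rose and none fell (median log2 fold change 1.34). PLAU, the urokinase that turns plasminogen into plasmin, rose from 125.7 and 133.9 to 406.4 and 384.6 CPM, with 307.7 and 305 CPM after palbociclib. The groups were well apart, with a log2 fold change of 1.61 ± 0.06 (SE; adjusted p = 5.74e-11, edgeR's quasi-likelihood test with Benjamini-Hochberg adjustment). PLAT, the other plasminogen activator, rose from 2.45 and 1.27 to 9.81 and 10.3 CPM, and MMP7 from 106.8 and 113.4 to 319 and 342.8 CPM. IGF binding proteins and TGF-beta ligands gave 13 higher (86.7%) and none lower of 15. Among them IGFBP7 went from 2.79 and 2.07 to 18.9 and 19.5 CPM, IGFBP5 from 9.72 and 10.9 to 34.8 and 35.2 CPM, and TGFB2 from 24.3 and 26.9 to 65.3 and 68.9 CPM.

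Of 44 collagen genes 27 were tested, and 21 (77.8%, against 28% of all genes) rose and 2 (7.4%, against 17.5%) fell, with a median log2 fold change of 1.57. With a filter of at least 50 counts on average 19 were tested, and 15 of these rose and 2 fell (median 1.33). COL1A1, a chain of fibrillar collagen I, went from 1.9 and 1.93 to 20.5 and 19.6 CPM (3.38), COL5A1 from 0.68 and 0.333 to 9.33 and 9.25 CPM (4.18), and COL4A1, of basement membranes, from 3.13 and 2.67 to 18.7 and 16.5 CPM (2.60). The epithelial anchoring collagens COL17A1 (0.952 and 1.33 to 12 and 12.6 CPM) and COL7A1 (71 and 38 to 287.2 and 195.7 CPM) rose too, the latter with duplicates that differed widely in both groups. COL4A3 fell from 26.6 and 27.3 to 19.1 and 14.3 CPM. The 8 fibroblast markers summed to 2.11 and 2.2 CPM without drug and to 23.2 and 22 CPM with indisulam. COL1A1 supplied most of that sum, with 28 and 29 counts and then 297 and 297. The other defining genes stayed near 0, with COL1A2 at 0 and 0 counts and then 1 and 1, COL3A1 at 0 and 0 and then 2 and 1, and DCN at 0 and 1 and then 3 and 0. THY1 had no count without drug and 21 in each library with indisulam.

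Genes of the epithelial junction and of mesenchymal transition gave 15 higher (60.0%, against 28% of all genes) and 4 lower (16.0%, against 17.5%) of 25, with 6 lower without the first untreated library. ZEB2 and SNAI2, transcription factors that repress epithelial genes, rose from near 0, with 0 and 1 counts of ZEB2 and then 20 and 16 (a ratio of 36.1 with a 95% exact counting interval of 6.08 to 1466), and 3 and 2 counts of SNAI2 and then 18 and 19. SPARC, a matrix glycoprotein, went from 0.408 and 0.267 to 3.66 and 3.3 CPM. TGFBI, a secreted adhesion protein induced by TGF-beta, rose from 409.9 and 428.6 to 1529 and 1550 CPM (log2 fold change 1.88), with palbociclib-treated cells at 745.8 and 726 CPM. CDH1, the epithelial cadherin, had 160 and 151.8 CPM without drug and 171.9 and 172.3 CPM with it, and did not pass the test, while the tight junction gene CLDN7 fell by 0.96 on the log2 scale. Of 16 tested keratins 10 (62.5%) rose and 1 fell, with KRT80 from 37.86 and 34.4 to 160.3 and 171.6 CPM. Integrins and laminins gave 17 higher (47.2%) and 3 lower (8.3%) of 36, with 6 lower without the first untreated library. EFEMP1, a fibulin of the matrix, rose from 35.68 and 38.86 to 233.4 and 254.1 CPM, and PAPPA, a protease that cleaves IGF binding proteins, from 36.23 and 44.06 to 196.8 and 203.1 CPM.

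**Figure D5:**
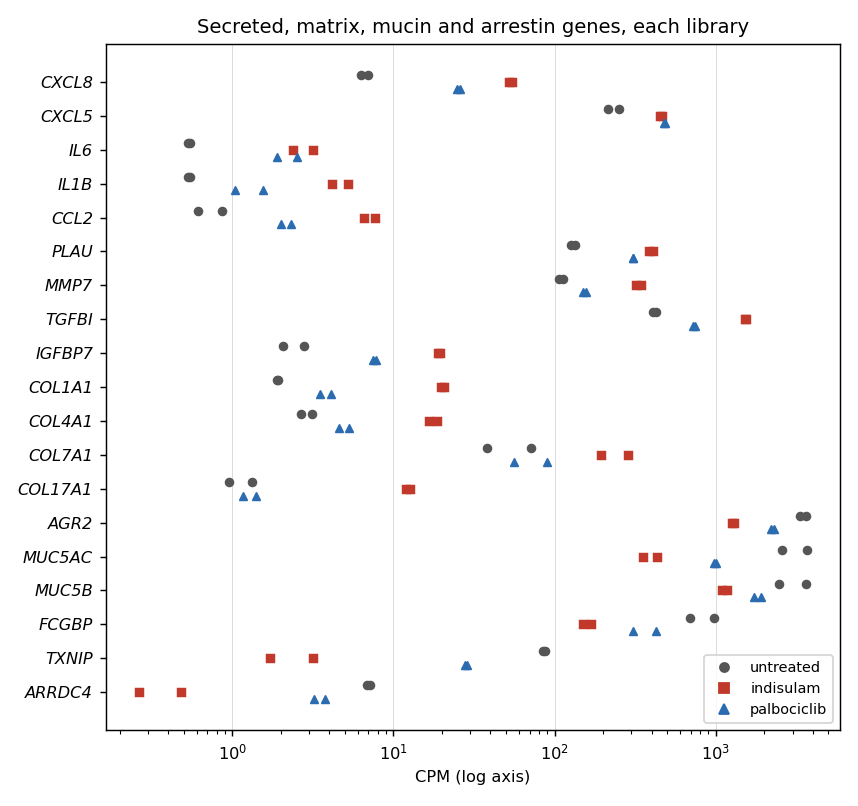
CPM of secreted, matrix and other genes in each untreated (grey circles), indisulam (red squares) and palbociclib (blue triangles) library, on a log axis. CXCL8 and COL1A1 lie highest with indisulam, and TXNIP, ARRDC4, MUC5AC and FCGBP lie lowest there.

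Published senescence lists gave a range of results. They share members with each other and with lists above, so their counts are not separate results. IL1B is in the Purcell list and the Hernandez list of secreted factors, and CDKN1A is in the Fridman, p53 target and CDK inhibitor lists. The Hernandez list of secreted senescence factors had 19 of 21 tested genes (90.5%, against 28% of all) higher and none lower (median log2 fold change 1.06). With palbociclib 14 of these 21 were higher than untreated and 0 lower. In the direct test between the drugs 12 were higher with indisulam and 0 lower, where 24.8% of all genes were higher and 13.6% lower. The Purcell list gave 23 higher (67.6%) and 3 lower of 34 (0.94). With a filter of at least 50 counts on average 23 of its genes were tested, and 15 were higher and 3 lower (0.57). The Casella list gave 24 higher (58.5%) and 5 lower of 41 (0.44). The Fridman list gave 39 higher (54.9%) and 5 lower of 71 (0.36, or 0.33 with genes at 0 set to their bound). Leaving out 1 library moved the lower counts of these 3 lists to between 2 and 9. The Hernandez senescence list, with 11 higher (35.5%) and 6 lower (19.4%, against 17.5% of all) of 31, had a median of 0.09, close to the 0.08 of all genes, and its median lay between -0.03 and 0.25 when 1 library was left out. Its lower count was 3 without the first indisulam library and 1 without the second. LMNB1, a lamin that falls in many senescent cells, had 48.26 and 47.73 CPM without drug and 36.49 and 36.21 CPM with indisulam, a log2 fold change of -0.40. LBR, which ties heterochromatin to the nuclear envelope, fell from 172.2 and 182.6 to 105.9 and 96.54 CPM, and the chromatin protein HMGA2 rose from 26.37 and 28.2 to 53.84 and 57.36 CPM. Of 15 tested BCL2 family genes 9 (60.0%) rose and none fell, 5 without the first indisulam library and 4 by DESeq2. In the EGF receptor family EGFR rose by 0.91 and ERBB3 fell by 1.10 on the log2 scale.

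The NRF2 targets, a group this line keeps at a high level, were mostly lower. Of 31 genes 21 (67.7%) fell and 5 rose (3 without the second indisulam library, 2 by DESeq2), with a median log2 fold change of -0.46, where 17.5% of all genes fell; their sum went from 52550 and 51770 CPM to 37900 and 37950 CPM. SLC7A11, the cystine importer, fell from 426.3 and 502.6 to 163.4 and 162.5 CPM (-1.51), and had 534 and 516.5 CPM with palbociclib. NQO1, a quinone reductase, fell from 3356 and 3578 to 1718 and 1739 CPM, GPX2, a glutathione peroxidase, from 1509 and 1548 to 676.9 and 708.4 CPM, and AKR1B10, an aldo-keto reductase, from 6296 and 6667 to 3624 and 3680 CPM. HMOX1, which breaks down haem and answers to several stress factors, went the other way, from 16.45 and 14.4 to 52.8 and 54.19 CPM.

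Genes of ATF4 and the unfolded protein response also fell for the most part, with 21 of 31 lower (67.7%, against 17.5% of all genes) and 3 higher (9.7%, against 28%), and 5 higher without the first untreated library (median log2 fold change -0.42). DDIT3, the stress factor CHOP, fell from 24.4 and 26.4 to 12.37 and 11.56 CPM, TRIB3 from 197.7 and 168.1 to 84.8 and 87.75 CPM, and HERPUD1, a factor in the disposal of misfolded proteins, from 202.4 and 213.5 to 100.3 and 106.9 CPM. ATF3 (0.90) and CEBPB (0.75) rose. With palbociclib 18 of the 31 were lower than untreated and 1 was higher. In the direct test between the drugs 14 were lower with indisulam and 5 higher, where 13.6% of all genes were lower and 24.8% higher. DDIT3 (12.24 and 11.41 CPM with palbociclib) and TRIB3 (98.55 and 92.5 CPM) did not pass that test. HERPUD1 (169.3 and 161.3 CPM with palbociclib) passed it as lower with indisulam. Cholesterol and fatty acid synthesis gave 14 lower (41.2%) and 4 higher (11.8%) of 34, with TMM 20 and 2, and 9 lower and 2 higher without either of the indisulam libraries. Lysosomal genes moved in both directions, with 15 higher (25.9%) and 19 lower (32.8%) of 58 and a median of 0.03 that turns negative with TMM (-0.05). Among them the hydrolases GUSB (78.37 and 73.26 to 32.62 and 28.55 CPM), HEXA (132.7 and 123.3 to 56.95 and 52.86 CPM) and TPP1 (141 and 130.1 to 61.51 and 60.07 CPM) fell.

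Most cytosolic ribosomal protein genes fell, by a small amount. Of 83 tested, 70 (84.3%, against 17.5% of all genes) were lower and 1 was higher, with a median log2 fold change of -0.31, and between 54 and 69 were lower when 1 library was left out. The higher one was RPS27L, a ribosomal protein paralog that p53 induces, from 114.7 and 129.5 to 279 and 285.3 CPM. RPLP0, of the ribosomal stalk, had the lowest log2 fold change of the list (-0.60) and fell from 2607 and 2886 to 1822 and 1800 CPM. Nuclear genes of oxidative phosphorylation gave 27 lower (35.5%) and none higher of 76. Without the first indisulam library 14 were lower, without the second 18, without the first untreated library 35 were lower and 3 higher, and without the second 20 lower and 5 higher. Of the 13 proteins encoded by the mitochondrial genome 4 were higher, 9 without the first untreated library and none without the second untreated or the first indisulam library. Mitochondrial ribosomal proteins gave 26 lower (34.2%) and 4 higher of 76, but 34 lower and 1 higher with TMM. Their median log2 fold change was -0.10, and lay between -0.14 and -0.07 when 1 library was left out. Zinc finger genes named ZNF gave 113 higher and 33 lower of 400 (28.2% and 8.2%, against 28% and 17.5% of all genes), 61 and 19 by DESeq2, and 19 lower without the second indisulam library.

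Smaller families differed in their share of higher genes, where all genes gave 28% higher and 17.5% lower. Intraflagellar transport and Bardet-Biedl proteins gave 1 higher (4.3%) and 8 lower (34.8%) of 23, with 5 lower without the first indisulam library, 2 higher and 4 lower without the second, and 3 higher without the first untreated library. Proteasome subunits gave 8 higher (21.6%) and 6 lower (16.2%) of 37, with 2 lower without the first indisulam library, 3 without the second and 10 without the first untreated library. Of 17 tested aldehyde dehydrogenases 5 (29.4%) rose and 7 (41.2%) fell, with ALDH1A3, which makes retinoic acid, from 0.34 and 0.2 to 4.56 and 4.82 CPM, and the mitochondrial folate enzyme ALDH1L2 from 103.5 and 115.3 to 43.68 and 42.49 CPM. The S100 calcium-binding proteins gave 4 higher (33.3%) and 5 lower (41.7%) of 12, with 3 lower without either of the indisulam libraries; S100A3 went from 8.36 and 7.6 to 19.7 and 21.4 CPM. All 4 tested metallothioneins rose, 2 of them without the first indisulam library and 2 by DESeq2, all from levels under 2 CPM. Of 10 tubulins 5 (50%) rose and none fell, 3 and 1 with TMM, among them TUBA1A from 22.91 and 25 to 62.13 and 61.52 CPM. Kinesin motors gave 11 higher (31.4%) and 4 lower of 35, with TMM 8 and 6, and 2 lower without the first indisulam library; KIF3C went from 21 and 20.33 to 55.15 and 59.87 CPM. Among 13 genes of HLA class I and antigen loading 6 (46.2%) rose and 2 fell, with 4 higher without the second untreated or the first indisulam library. The class I activator NLRC5 (8.5 and 8.4 to 22 and 15.8 CPM) and the peptide transporter TAP1 (24.9 and 22.8 to 43.1 and 39.4 CPM) rose. Glycolysis and hypoxia genes gave 11 higher (39.3%) and 3 lower of 28, with TMM 8 and 6 and without the second untreated library 10 and 6, with a median log2 fold change of 0.08 that equals that of all genes; SLC2A3, a glucose transporter, rose from 1.9 and 2.2 to 7.19 and 6.41 CPM.

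TXNIP fell most among coding genes with at least 10 CPM, and MUC5AC fell most among those with at least 100 CPM. TXNIP, an arrestin-like protein that restrains glucose uptake and thioredoxin (chr1:145992435-145996579, minus strand), had 84.96 and 87.06 CPM without drug and 3.18 and 1.72 CPM with indisulam, against 28.64 and 28.01 CPM with palbociclib. This was 35.2-fold lower (log2 fold change -5.14 ± 0.16 SE; adjusted p = 1.87e-11, edgeR's quasi-likelihood test with Benjamini-Hochberg adjustment). ARRDC4, its paralog, fell from 6.87 and 7.2 to 0.484 and 0.264 CPM, and NTS, the peptide neurotensin, from 17.3 and 18 to 1.11 and 0.661 CPM. MUC5AC, a gel-forming mucin of airway goblet cells, fell from 3693 and 2576 to 352.9 and 435.7 CPM (-2.99), with 998.5 and 972.8 CPM after palbociclib. FCGBP, a protein of mucus, fell from 983.9 and 695.3 to 150.7 and 169.4 CPM (-2.39). Of 17 mucin genes 10 were tested, and 3 were higher and 3 lower (30.0% each, against 28% and 17.5% of all genes), with 1 higher and 2 lower without the first indisulam library and 2 of each by DESeq2. The higher ones were MUC3A (0 and 0 counts without drug, 11 and 14 with indisulam), MUC12 (0 and 1, then 11 and 5) and MUC19 (2 and 1, then 14 and 8), and the lower ones were MUC5AC, MUC5B and MUC16. With a filter of at least 50 counts on average 5 mucins were tested, of which 0 were higher and 3 lower. For MUC5AC and FCGBP the untreated duplicates differed widely but stayed far above the indisulam values. S100P fell from 35.34 and 37.66 to 7.67 and 7.33 CPM, HLA-DMB, which loads peptides on class II molecules, from 118.1 and 126.5 to 24.67 and 23 CPM, and the lysosomal enzyme AGA from 35.62 and 37.06 to 5.32 and 6.01 CPM.

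The largest increases among coding genes with at least 10 CPM began near 0. SLAMF7, a surface receptor best known from lymphocytes, went from 0.476 and 0.533 to 14.8 and 13.3 CPM (log2 fold change 4.77). NKAIN4 went from 0.408 and 0.533 to 14 and 12.4 CPM, but it overlaps FLJ16779 on the other strand (0.272 and 0.133 to 12.1 and 12.8 CPM), and the reads of these 2 cannot be told apart without the strand setting. ADAM19, a membrane protease, rose from 1.97 and 1.33 to 26.6 and 26 CPM and overlaps CYFIP2. Among noncoding genes GAS6-AS1 (3.09) and MEG3 (2.15) rose, and ZBED5-AS1 (-2.03) and NRSN2-AS1 (-1.53) fell.

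A set of genes was close to silent without drug. In 54 genes, 42 of them coding, each untreated library had at most 3 counts and each indisulam library at least 1 CPM; the reverse was seen in 3 genes, CALCR, GABRR3 and ENSG00000272369. MARCHF4, a membrane E3 ligase, had no count without drug and 46 and 44 with indisulam, which is at least 15.1-fold higher with 3 counts per untreated library as the floor. MAF, a transcription factor, had 2 and 1 counts and then 78 and 83, a ratio of 53.9 (95% exact counting interval 18.1 to 263.9). GRIP2 went from 1 and 3 to 85 and 92 counts (44.4, interval 17.0 to 164.8), TMEM130 from 3 and 3 to 78 and 101 (29.9, interval 13.5 to 82.7) and LINC02154 from 2 and 0 to 48 and 60 (54.2, interval 14.7 to 453.3). These intervals cover counting error only, and the reads carry no molecular identifiers.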

How the data were processed

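The authors deposited raw read counts per Ensembl gene, made from single-end reads of a stranded poly(A) library. The submitters' processing notes name HISAT2 2.2.1, HTSeq and the build GRCh38; the annotation release and the strand setting of the counting are not given in the sources used here, so reads may be shared between genes that overlap on opposite strands (among those named, also MDM2, COL4A1, PLAU, IGFBP7, DDIT3 and GPX2). Only gene rows were used. Symbols, coordinates and exon numbers came from GENCODE 44, which held 60370 of the 60683 gene rows, and promoters from RefSeq GRCh38.p14, without those of chromosome 8.

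Groups were taken from the sample labels. All 10 A549 libraries were fitted together with edgeR 4.0.16 (R 4.3.3), using the quasi-likelihood test on counts scaled to the total of gene rows, with Benjamini-Hochberg adjustment over the 15780 genes that passed edgeR's filter on low counts. A gene was called at an adjusted p under 0.05, and 2-fold calls also needed a change of at least 2-fold. An exact permutation test of 2 against 2 libraries cannot give a two-sided p below 0.33. Alternatives were TMM and RLE scaling, DESeq2 1.42.0, other filters on low counts, the compared libraries alone, the replicate number as a block, and each library left out.

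The gene lists and the comparison were chosen with earlier results of these data known. Genes were named by rule: the target, ligase, CDK-activating kinase and CDK inhibitor genes; the 12 coding genes that moved furthest each way and reached 10 CPM in one group, and the 6 that did so at 100 CPM; the 4 members of each list with the largest called changes; the 5 highest of those close to silent without drug; and the 5 noncoding genes in each direction. Members outside this rule (MDM2, TP53INP1, PLK2, EDA2R, PHLDA3, SESN1, SESN2, PCNA, MKI67, CCNB1, CDK1, MAGOH, CXCL5, IL6, IL11, ISG20, OAS1, MMP7, PLAU, TGFB2, COL4A1, COL7A1, COL4A3, CDH1, CLDN7, LMNB1, MUC5B, MUC16, ATF3, CEBPB and the markers) were chosen after their values were seen. Some genes of the lists are counted in them but are not reported here by name.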

Additional observations from a re-analysis of the deposited data

How the results depend on the processing

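Of 68 recomputed summary counts, 64 stayed within 1.5 times the value given. DESeq2 called 2742 genes higher than untreated and 2076 higher than palbociclib. With only the compared groups in the fit, 3305 genes were higher and 2020 lower than untreated. With a mean of at least 50 counts, which left 11699 genes, 605 were at least 2-fold higher and 246 at least 2-fold lower. TMM scaling gave 3613 genes higher and 3558 lower than untreated, and 2952 higher and 3001 lower than palbociclib. All list counts against palbociclib were made with total counts only. Leaving out 1 library gave 3404 to 4525 genes higher, 2092 to 2939 lower, 1279 to 1628 at least 2-fold higher and 441 to 557 at least 2-fold lower; against palbociclib it gave 2715 to 2989 higher and 1475 to 1575 lower. Of 2630 recomputed values of named genes, 2506 kept their direction and their side of the threshold, 106 no longer passed it, 11 newly passed it and 7 changed sign. The sign changes were those of DDA1 (-0.07 with TMM, RLE and DESeq2, and -0.04 to 0.06 with 1 library left out), MNAT1 (-0.11 to 0.00 with 1 library left out) and CCNA2 (-0.23 to 0.02), none of which passed the test; the cause was not tested.

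The duplicates share replicate numbers, but nothing in the labels ties equal numbers together. A replicate block in the fit gave 4368 genes above and 2705 below untreated, 1495 and 490 of them by at least 2-fold, and 3784 were higher and 2085 lower than palbociclib. Deviations of same-numbered indisulam and untreated libraries correlated at 0.168, and those of indisulam and palbociclib libraries at -0.181; with the palbociclib numbers crossed, an alternative chosen after seeing the data, the block gave 4289 higher and 2373 lower. At this depth, genes with few counts could be called only when their change was large.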

Other observations

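The genes named here, all but MUC5B outside the lists, were chosen after their values were seen. Each passed the test across all genes, and they stand for no group. AGR2, which folds mucins, went from 3343 and 3659 to 1263 and 1304 CPM, and MUC5B, the other gel-forming airway mucin, from 3621 and 2488 to 1095 and 1183 CPM. SPDEF, a transcription factor of goblet cells, went from 82.58 and 62.33 to 31.03 and 30.13 CPM, CREB3L1 from 70.55 and 58.66 to 25.43 and 25.04 CPM, and BPIFB1, a secreted airway protein, from 33.24 and 32.87 to 8.5 and 8.46 CPM. Lower genes also included ADH1C, an alcohol dehydrogenase, from 455.1 and 489.9 to 187.1 and 206.6 CPM, FGL1 from 700.6 and 748.3 to 285.2 and 292.9 CPM, and CPS1, the first enzyme of the urea cycle, from 97.74 and 105.7 to 36.21 and 38.92 CPM.

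Among the genes that rose, LOXL2, which cross-links collagen, went from 14.27 and 12.07 to 65.1 and 65.09 CPM, LTBP2 from 9.52 and 9.47 to 75.81 and 70.77 CPM, and FBN1, a fibrillin, from 21.14 and 17.6 to 64.76 and 60.53 CPM. ACTA2, smooth muscle actin, rose from 11.69 and 10.67 to 61.51 and 63.5 CPM, though it overlaps FAS on the other strand. Both enzymes of inducible prostaglandin E2 synthesis rose, PTGS2 from 54.51 and 60.53 to 185.1 and 194.3 CPM and PTGES from 27.94 and 25.33 to 75.26 and 77.71 CPM. In palbociclib-treated cells PTGS2 stood at 62.11 and 62.18 CPM and PTGES at 26.79 and 25.81 CPM. The complement proteases C1R (152.2 and 148 to 406.1 and 417.2 CPM) and C1S (176.7 and 186.3 to 469.5 and 458.3 CPM) rose in the same libraries.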
